A study of Rattus norvegicus with 12 samples.

Results

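The 8 genes described here encode receptors, a ligand and a peptide-processing enzyme of the adrenergic, endothelin and angiotensin systems. They were chosen by name: Adrb1, Adra1a, Adra1b, Edn1, Ednra, Ednrb, Agtr1a and Ace. Each name matched 1 row of the 32883 genes counted, and all 8 were among the 14063 genes that passed the filter on low counts. The cells were primary cardiomyocytes from the ventricles of newborn rats, and their RNA was sequenced 2 days after an adenovirus was added. The virus carried LacZ, a bacterial gene used as control cargo, or human KAT6A, a histone acetyltransferase, unchanged (WT) or as a point mutant, in which arginine (K815R, which cannot be acetylated there) or glutamine (K815Q, which mimics acetylation) replaces a lysine. Each of the 4 groups had 3 libraries, and every group, the control included, had received a virus. The labels do not say whether the libraries of a group came from separate cell preparations, so p-values measure the spread between these libraries only.

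Catecholamines, endothelin-1 and angiotensin II are the classical hormones that make heart muscle cells contract harder and grow. Beta-adrenergic receptors act mainly through Gs, adenylyl cyclase and protein kinase A, whereas the alpha-1 adrenergic, endothelin A and angiotensin type 1 receptors act mainly through Gq, phospholipase C and protein kinase C. Ventricular myocytes of newborn rats answer alpha-1 agonists, endothelin-1 and angiotensin II by hypertrophy, and such cultures usually also hold fibroblasts and some endothelial cells that carry part of these receptors.

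Gene counts per library ranged from 19102048 to 25451686, and levels are given as CPM, read counts relative to the library's TMM-scaled total, in which 3 counts correspond to 0.118 to 0.156 CPM. The delivered KAT6A is human and reads were counted on the rat Kat6a gene, which stood at 48.1 ± 4.75 CPM with LacZ, 93.0 ± 12.3 with WT, 108 ± 11.7 with K815R, and labelled K815Q libraries had 46.3 ± 3.35 (mean ± SD, n = 3). No rise of Kat6a was measured in the last group (log2 fold change against LacZ -0.05, adjusted p 0.815 by edgeR; between -0.11 and 0.03 when a library was left out), so this group is named by its label throughout and what is said of it depends on that label. Cardiomyocyte markers summed to 37350 to 38890 CPM with LacZ and 39060 to 40280 with WT. The sums were 40270 to 41340 CPM with K815R and 38320 to 40180 with labelled K815Q. All WT and K815R libraries thus lay above LacZ, and K815R above labelled K815Q. The part of this in the results below was not tested. Tnnt2 among these markers stood at 8262 ± 358 CPM with LacZ (SD, n = 3). Fibroblast markers summed to between 11050 and 12890 CPM, smooth muscle and pericyte markers to between 4456 and 5091, and endothelial markers to between 354.4 and 446.2. Interferon response genes summed to between 399.0 and 665.4 CPM with LacZ and to between 86.45 and 193.5 CPM in the 9 other libraries. In bulk RNA, fewer cells of a type and less RNA per cell cannot be told apart.

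Of 48 results (8 genes in 6 comparisons), 2 passed the test at an adjusted p under 0.05. Both involved the labelled K815Q libraries: Adra1b was higher there than in LacZ, and Agtr1a was higher there than in WT. The log2 fold changes of all 48 results lay between -0.46 and 0.55. The call in labelled K815Q against LacZ was 1 of 8 genes, where 7.85% of all genes tested were called, and the call against WT was 1 of 8, where 1.07% were called. None of the 8 genes was called in WT against LacZ (background 5.34%), K815R against LacZ (2.47%), K815R against WT (2.20%) or K815R against labelled K815Q (0.363%). In these 4 comparisons edgeR gave 3, 1, 1 and 3 of the 8 genes an unadjusted p under 0.05, against 19.1%, 13.8%, 13.8% and 11.4% of all genes, and DESeq2 called none of the 8 either. When all 4 groups were tested together, edgeR called Adra1b (adjusted p 0.0276) and Agtr1a (0.0136), 2 of 8 genes beside 8.13% of all genes. Groups did not overlap for 2, 3 and 2 of the 8 genes in WT, K815R and labelled K815Q against LacZ, where 24.6%, 18.7% and 28.4% of all genes had no overlap. For K815R against WT the count was 2 (19.0% of all genes), for labelled K815Q against WT it was 2 (19.3%), and for K815R against labelled K815Q 2 (16.0%). In both comparisons with a call, 2 of the 8 genes had an unadjusted p under 0.05, beside 24.2% of all genes against LacZ and 14.4% against WT. The background itself shifted when some single libraries were left out. For labelled K815Q against LacZ, 1104 genes were called with all libraries. The count was 360, 1079 and 733 without replicate 1, 2 and 3 of the labelled K815Q libraries, and 1182, 418 and 507 without LacZ replicate 1, 2 and 3. For labelled K815Q against WT, 151 genes were called with all libraries. The count was 50, 109 and 67 without WT replicate 1, 2 and 3, and 53, 146 and 137 without replicate 1, 2 and 3 of the labelled K815Q libraries.

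**Figure D1:**
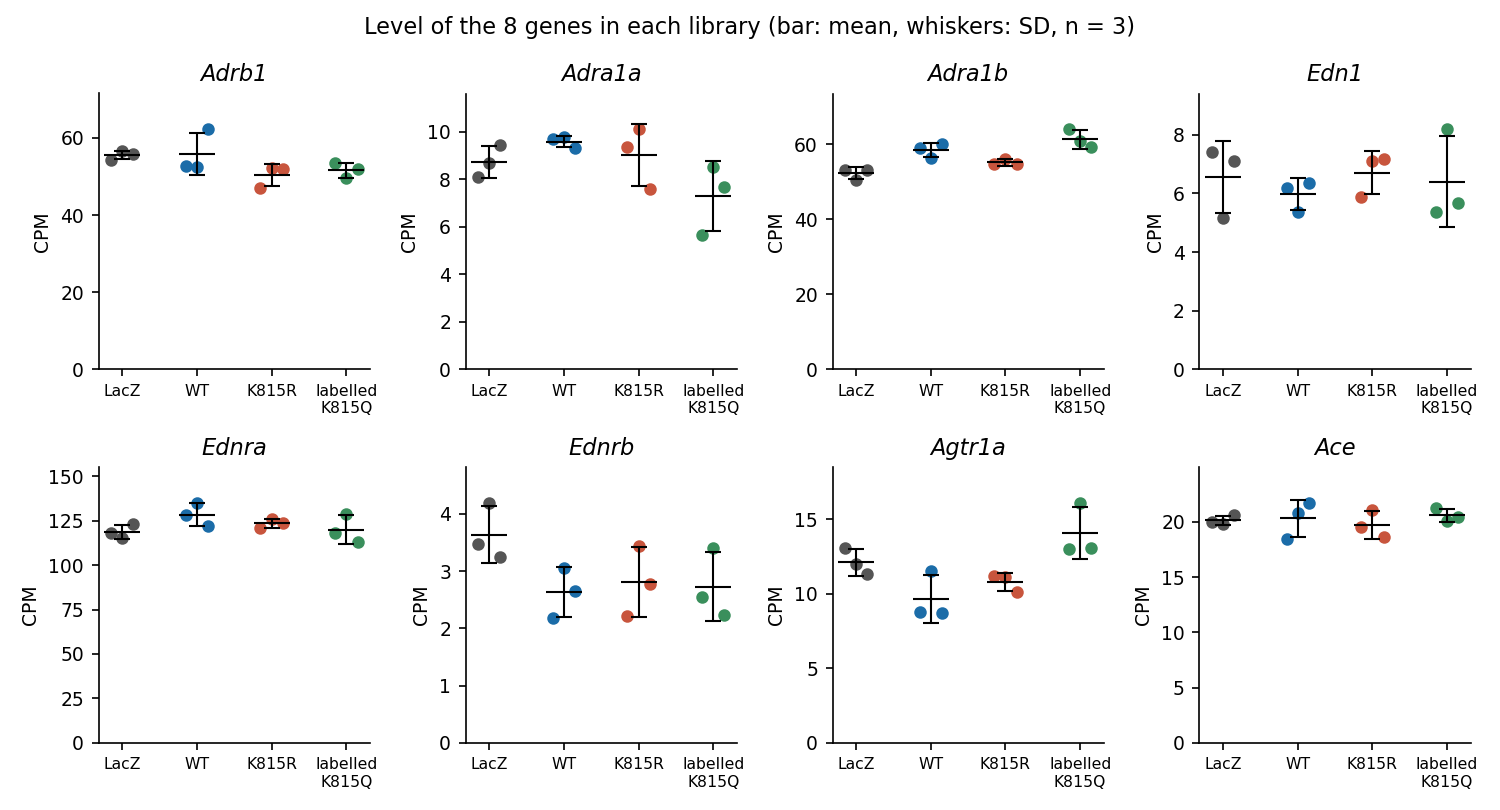
Level of each of the 8 genes in CPM (vertical axis, from 0) in the 12 libraries, by group (horizontal axis); points are libraries, the bar is the mean and the whiskers the SD of 3 libraries. Adra1b lies between 59.2 and 64.0 CPM with labelled K815Q and between 50.5 and 53.2 with LacZ, and Agtr1a between 8.70 and 11.5 CPM with WT and between 13.0 and 16.1 with labelled K815Q.

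The regulatory sequence of the 2 genes that were called is shown for reference, as the 250 bases before the RefSeq start, 5′ to 3′ on the gene's strand, in build GRCr8. Capitals mark a match to a TATA box (TATAAA).
Adra1b, chr10:28814348-28814597, minus strand: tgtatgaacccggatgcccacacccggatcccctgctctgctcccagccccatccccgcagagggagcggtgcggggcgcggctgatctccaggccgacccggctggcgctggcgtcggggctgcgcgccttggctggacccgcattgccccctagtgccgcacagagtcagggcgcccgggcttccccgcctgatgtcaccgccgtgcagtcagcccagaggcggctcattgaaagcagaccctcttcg
Agtr1a, chr17:34435433-34435682, minus strand: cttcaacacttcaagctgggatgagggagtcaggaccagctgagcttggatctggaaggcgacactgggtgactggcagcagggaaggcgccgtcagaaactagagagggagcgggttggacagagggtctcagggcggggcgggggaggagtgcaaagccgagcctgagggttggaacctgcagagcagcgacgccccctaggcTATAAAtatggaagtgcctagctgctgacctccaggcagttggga
Both strands were searched for TATAAA, the AP-1 motif TGACTCA, the CRE motif TGACGTCA and the GATA motif AGATAA. These motifs occurred in 12.9%, 4.05%, 1.59% and 10.3% of 33469 rat promoter windows of the same length. The Agtr1a window held 1 TATAAA, from 45 to 40 bases before the start, and no other match. The Adra1b window, which is 70.8% G and C, held none of these letters. RefSeq promoters were at hand for 7 of the 8 genes. The counts were made on Rnor_6.0, per the submitters' processing notes, and the data do not measure activity at these windows.

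Adra1b (ENSRNOG00000060087) encodes the alpha-1B adrenergic receptor, a Gq-coupled receptor for noradrenaline on heart muscle cells. Its libraries stood at 53.2, 50.5 and 53.2 CPM with LacZ, at 59.1, 56.4 and 60.0 with WT, at 54.7, 56.2 and 54.7 with K815R and at 64.0, 60.8 and 59.2 with labelled K815Q. Each group labelled with a KAT6A form lay wholly above LacZ, the labelled K815Q libraries and WT overlapped, and K815R lay below both. Of all genes, 24.6%, 18.7% and 28.4% had no overlap in WT, K815R and labelled K815Q against LacZ. For K815R against WT and against labelled K815Q the shares were 19.0% and 16.0%. The group means of Adra1b rose in the order LacZ, K815R, WT and labelled K815Q. No neighbours in this order were called different (adjusted p 0.57, 0.524 and 0.594 by edgeR).

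Against LacZ, Adra1b was higher in the labelled K815Q libraries, with a log2 fold change of 0.23 (its SE was 0.0525, adjusted p 0.00959 by edgeR), that is 1.17-fold with a 95% interval of 1.09 to 1.26. In WT the difference from LacZ was 0.16 (SE 0.0526, adjusted p 0.0763 by edgeR) and in K815R 0.08 (SE 0.0524, adjusted p 0.57), and neither passed the test. K815R stood below the labelled K815Q libraries by a log2 difference of -0.15, and this did not pass the test (adjusted p 0.235 by edgeR). The call against LacZ was kept in 4 of 6 fits that left out a library. Without LacZ replicate 2 the log2 fold change was 0.20 (adjusted p 0.0607 by edgeR), and without replicate 1 of the labelled K815Q libraries it was 0.20 (adjusted p 0.0761). Interferon response genes differed between the same groups: 11 of 11 tested were called lower in the labelled K815Q libraries than in LacZ, with sums of 86.45 to 106.2 CPM against 399.0 to 665.4. The sum of 9 macrophage markers also differed, at 90.76 to 95.96 CPM against 63.86 to 84.08, with Lyz2 called higher and Adgre1 lower. The part of either in the difference of Adra1b was not tested.

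The 3 genes of at least 5 CPM whose log2 CPM over the 12 libraries was most like that of Adra1b were Tubb3 (Pearson r 0.924), which encodes a beta-tubulin, Slc39a13 (0.923), which encodes a zinc transporter, and Prkaa2 (0.919), which encodes the alpha 2 catalytic subunit of AMPK. They were taken from 10260 genes and are a description of libraries that share group and depth. Prkaa2 stood at 54.8 to 72.7 CPM with LacZ, 78.1 to 95.4 with K815R, 435 to 633 with WT and 1134 to 1232 with labelled K815Q. Its groups thus had the same order as those of Adra1b, over a far wider range. Kat6a did not share this order, at 46.3 CPM with labelled K815Q, 48.1 with LacZ, 93.0 with WT and 108 with K815R. Why Prkaa2 differed between the groups was not tested, and what the labelled K815Q libraries received is known from their label only. For the deviations from the group means alone, r between Prkaa2 and Adra1b was 0.656 (n = 12 libraries). Prkaa2 was picked by its r with Adra1b in these same libraries, so this value is no separate test of a link.

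Adrb1 (ENSRNOG00000017002) encodes the beta-1 adrenergic receptor, the main beta receptor of heart muscle. Levels were 54.3, 56.5 and 55.9 CPM with LacZ, 52.8, 52.5 and 62.2 with WT, 47.1, 52.1 and 51.9 with K815R and 53.4, 49.5 and 51.9 with labelled K815Q. All K815R and labelled K815Q libraries lay below the 3 LacZ libraries, in comparisons where 18.7% and 28.4% of all genes had no overlap. WT reached from below to above the LacZ range. The log2 differences from LacZ were -0.14 with K815R (SE 0.064, adjusted p 0.326 by edgeR) and -0.11 with labelled K815Q (SE 0.0644, adjusted p 0.321), and neither passed the test. No comparison of Adrb1 allowed a difference beyond 1.22-fold in its 95% interval.

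Adra1a (ENSRNOG00000009522) encodes the alpha-1A adrenergic receptor, the other alpha-1 receptor tied to growth of rat heart muscle cells. Its libraries stood at 8.09, 8.69 and 9.43 CPM with LacZ, 9.69, 9.77 and 9.31 with WT, 9.38, 10.1 and 7.58 with K815R and 5.67, 8.53 and 7.66 with labelled K815Q. The last group was the lowest in mean and the most spread, with its replicate 1 below every other library. Against WT the log2 difference was -0.39 (SE 0.13, adjusted p 0.15 by edgeR) without overlap of the groups, as was the case for 19.3% of all genes. It was called when no filter on low counts was applied (-0.39, adjusted p 0.0363 by edgeR). With 109 to 256 counts per library, the 95% intervals of Adra1a reached 1.58-fold.

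Edn1 (ENSRNOG00000014361) encodes the precursor of endothelin-1, a peptide made mainly by endothelial cells and also by stressed heart muscle cells. Its level was 6.56 ± 1.21 CPM with LacZ, 5.98 ± 0.529 with WT, 6.71 ± 0.73 with K815R and 6.40 ± 1.54 with labelled K815Q (mean ± SD, n = 3). All 4 groups overlapped, the 6 log2 differences lay between -0.14 and 0.17, and the lowest adjusted p was 0.70 by edgeR. At 103 to 180 counts per library a difference of up to 1.42-fold lay within the 95% intervals.

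Ednra (ENSRNOG00000012721), the endothelin A receptor gene through which endothelin-1 acts on heart muscle, was counted most often of the 8, with 2169 to 3205 counts per library. Group levels were 119 ± 4.36 CPM with LacZ, 128 ± 6.45 with WT, 124 ± 2.88 with K815R and 120.2 ± 8.42 with labelled K815Q (mean ± SD, n = 3). The libraries of all groups overlapped. The value farthest from 0 was 0.11 for WT against LacZ (SE 0.0546, adjusted p 0.265 by edgeR), and no 95% interval went beyond 1.17-fold.

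Ednrb (ENSRNOG00000010997) encodes the endothelin B receptor, which is found mainly on endothelial cells and other non-muscle cells and also clears endothelin-1. With 43 to 94 counts per library it was the least counted of the 8. The libraries had 3.48, 4.19 and 3.24 CPM with LacZ, 2.18, 3.05 and 2.66 with WT, 2.22, 3.43 and 2.77 with K815R and 2.55, 3.40 and 2.24 with labelled K815Q. LacZ had the highest mean, lay wholly above WT, as groups did for 24.6% of all genes in that comparison, and overlapped the others. The log2 differences from LacZ were -0.46 with WT (SE 0.184, adjusted p 0.156 by edgeR), -0.35 with K815R (SE 0.178, adjusted p 0.396) and -0.41 with labelled K815Q (SE 0.184, adjusted p 0.174). None passed the test, the 3 values share the same LacZ libraries, and the 95% intervals reached 1.80-fold. None of 10 endothelial markers was called in these comparisons, and 5, 10 and 3 of them stood higher than LacZ in WT, K815R and labelled K815Q. Their sums overlapped, at 379.4 to 424.2 CPM with LacZ, 365.2 to 430.7 with WT, 398.4 to 446.2 with K815R and 354.4 to 427.0 with labelled K815Q. The part of endothelial cells in the values of Ednrb was not tested.

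Agtr1a (ENSRNOG00000018346) encodes the angiotensin II receptor type 1a, the main receptor through which angiotensin II acts on heart cells. Its libraries stood at 13.1, 12.0 and 11.3 CPM with LacZ, at 8.77, 11.5 and 8.70 with WT, at 11.2, 11.1 and 10.1 with K815R and at 13.0, 16.1 and 13.1 with labelled K815Q. The labelled K815Q libraries lay above every WT and K815R library, in comparisons where 19.3% and 16.0% of all genes had no overlap. They overlapped LacZ. WT replicate 2 stood apart from the rest of WT, inside the LacZ range. The order of the means was WT, K815R, LacZ and labelled K815Q, with no neighbours called different (adjusted p 0.591, 0.543 and 0.224 by edgeR).

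Agtr1a was higher in the labelled K815Q libraries than in WT, with a log2 fold change of 0.55 (its SE was 0.112, adjusted p 0.0158 by edgeR), or 1.46-fold with a 95% interval of 1.24 to 1.71. Against LacZ it differed by -0.33 with WT (SE 0.112, adjusted p 0.0908 by edgeR), by -0.17 with K815R (SE 0.109, adjusted p 0.543) and by 0.21 with labelled K815Q (SE 0.107, adjusted p 0.224). K815R stood below the labelled K815Q libraries by -0.38 (SE 0.109, adjusted p 0.138 by edgeR), a value that was called when no filter on low counts was applied (adjusted p 0.0148). The call against WT was kept in 3 of 6 fits that left out a library. It was lost without WT replicate 1 (log2 fold change 0.48, adjusted p 0.0985 by edgeR), WT replicate 3 (0.47, adjusted p 0.13) and replicate 2 of the labelled K815Q libraries (0.43, adjusted p 0.08). WT against LacZ, in turn, was called without WT replicate 2 (-0.48, adjusted p 0.0245 by edgeR) and without a filter on low counts (-0.34, adjusted p 0.0202).

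**Figure D2:**
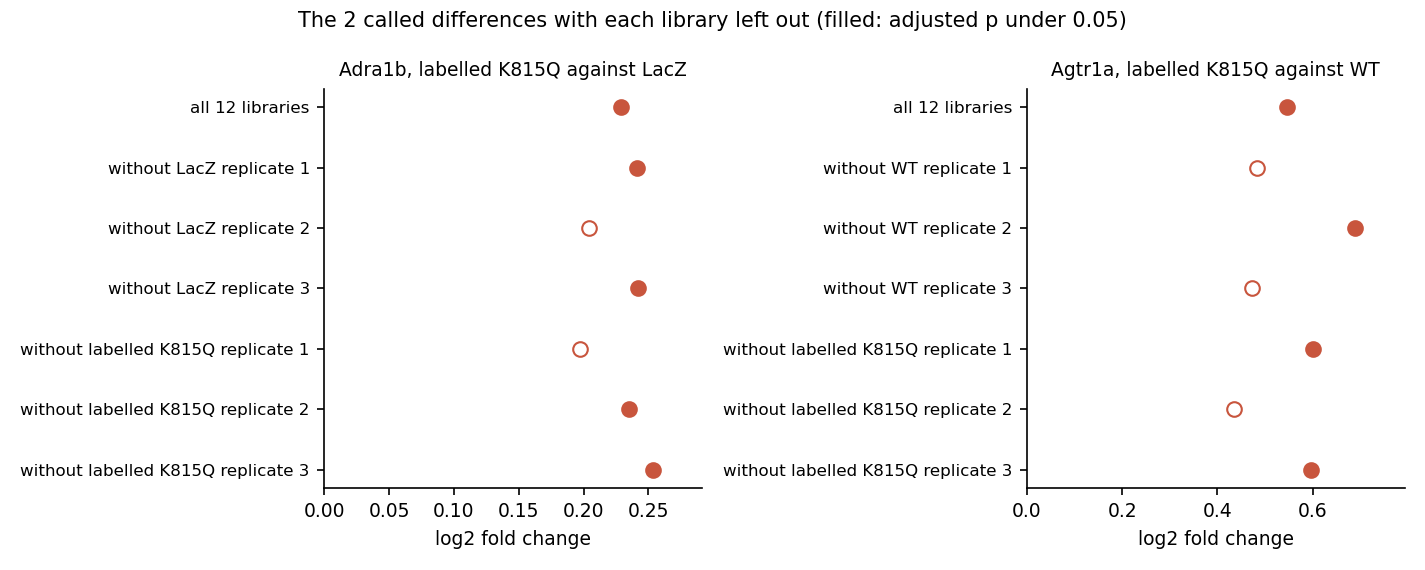
Log2 fold change (horizontal axis, from 0) of Adra1b in the labelled K815Q libraries against LacZ (left) and of Agtr1a in them against WT (right), with all 12 libraries and with each compared library left out (vertical axis); filled points are called at an adjusted p under 0.05. The values stay between 0.20 and 0.25 for Adra1b and between 0.43 and 0.69 for Agtr1a, and 4 and 3 of the 6 points with a library left out are filled.

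Fibroblasts of the neonatal heart express angiotensin type 1 receptors, and the sum of 10 fibroblast markers moved with Agtr1a. It ranged from 11050 to 12090 CPM with WT, 11150 to 11590 with K815R, 11900 to 12780 with LacZ and 11990 to 12890 with labelled K815Q. Over the 12 libraries r between the logarithms of this sum and of Agtr1a was 0.898 (Spearman correlation 0.916), it was 0.838 without the 2 libraries farthest from the median sum, and 0.909 for deviations from the group means. WT replicate 2, the WT library highest in Agtr1a, was also the WT library highest in this sum. The pair was chosen after the values were seen, collagen mRNAs make up most of the sum, and its part in the difference of Agtr1a was not tested. Sums of 2 other marker lists also separated the labelled K815Q libraries from WT. The 6 epicardial markers summed to 55.33 to 58.09 CPM with labelled K815Q and 46.43 to 51.68 with WT, beside 50.95 to 54.63 with K815R and 51.43 to 57.27 with LacZ. The 9 macrophage markers summed to 90.76 to 95.96 CPM with labelled K815Q and 84.63 to 89.52 with WT, beside 86.31 to 92.15 with K815R and 63.86 to 84.08 with LacZ. The part of these in the difference of Agtr1a was not tested either. Single markers did not move alike. Pdgfra was higher in the labelled K815Q libraries than in WT (log2 fold change 0.30, adjusted p 0.0189 by edgeR), whereas Postn differed by -0.15 (adjusted p 0.268). Pdgfra means were 61.2 CPM with LacZ, 47.7 with WT, 69.2 with K815R and 58.7 with labelled K815Q (n = 3). Those of Postn were 313, 399, 310 and 361 CPM in the same order. In WT against LacZ, edgeR called Pdgfra lower and Postn higher. The genes most like Agtr1a over the 12 libraries were Gpm6b (r 0.933), Slit3 (0.913) and Ramp1 (0.912). Slit3 encodes a secreted guidance protein and Ramp1 a partner of the calcitonin receptor-like receptor. Spearman correlations of the 3 genes with Agtr1a were 0.734, 0.825 and 0.916. They too were taken from 10260 genes in these same libraries. Agtr1b, the second rat gene for this receptor type, had 0 counts in all 12 libraries.

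**Figure D3:**
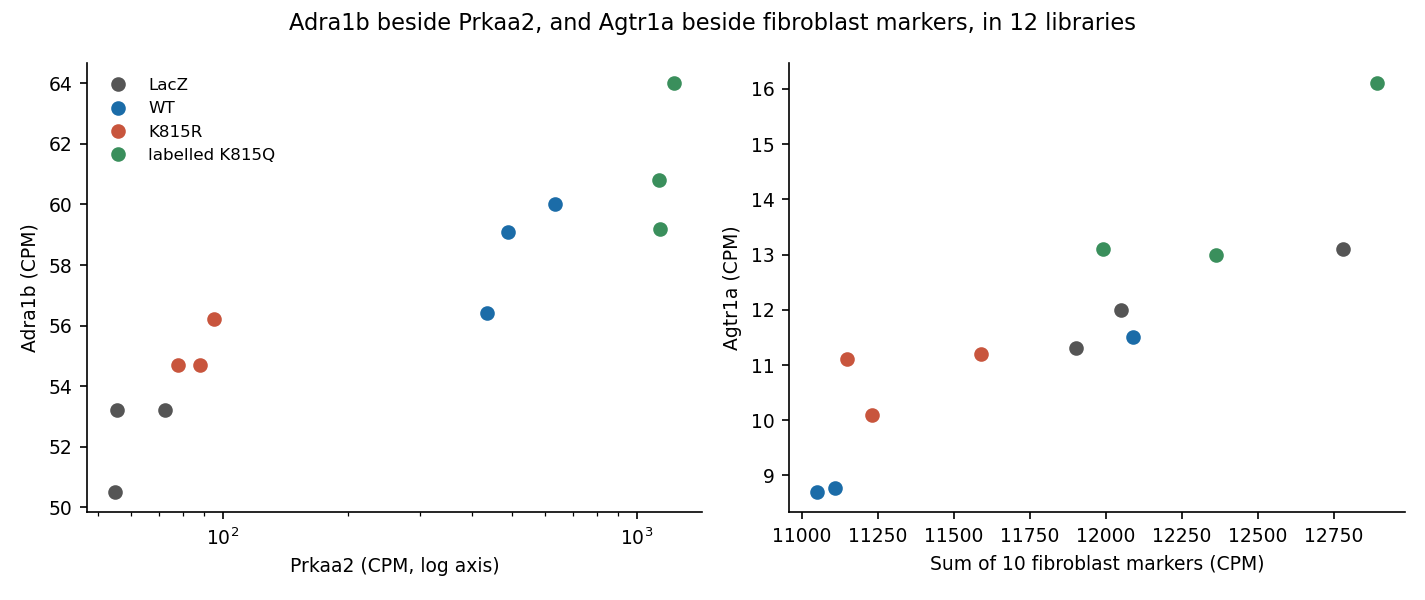
Left, Adra1b against Prkaa2 (CPM, logarithmic horizontal axis); right, Agtr1a against the sum of 10 fibroblast markers (CPM), with 1 point per library coloured by group; axes do not start at 0. Adra1b rises with Prkaa2 (r of logarithms 0.919), and Agtr1a with the marker sum (r 0.898), each over 12 libraries. Both pairs were chosen from these same values.

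Ace (ENSRNOG00000062101), which encodes the enzyme that makes angiotensin II from angiotensin I, had the smallest differences of the 8. Its 12 libraries lay between 18.4 and 21.7 CPM, with means of 20.1 ± 0.414 with LacZ, 20.3 ± 1.70 with WT, 19.7 ± 1.29 with K815R and 20.5 ± 0.595 with labelled K815Q (SD, n = 3). All groups overlapped, the log2 differences lay between -0.06 and 0.03, and the lowest adjusted p was 0.819 by edgeR. The 95% intervals stayed within 1.16-fold in every comparison.

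**Figure D4:**
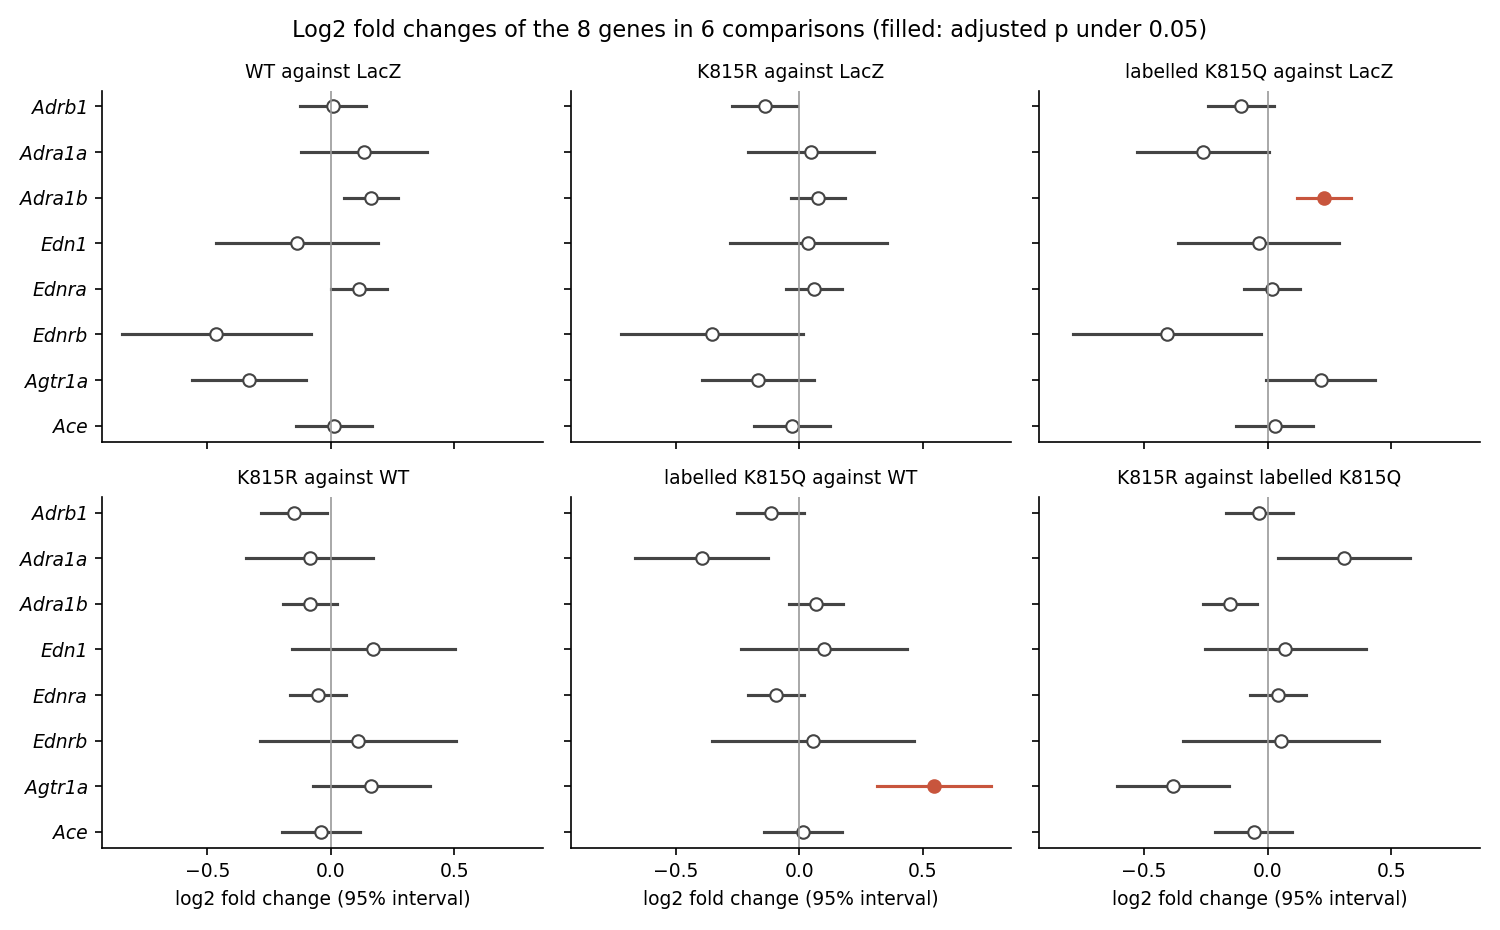
Log2 fold changes (horizontal axis) of the 8 genes (vertical axis) in the 6 comparisons, with 95% intervals; filled points are called at an adjusted p under 0.05. The 2 filled points are Adra1b in the labelled K815Q libraries against LacZ (0.23) and Agtr1a in them against WT (0.55); intervals are widest for Ednrb, Edn1, Adra1a and Agtr1a.

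Other genes of the 3 systems were described from lists of 90 symbols, of which 78 genes could be tested. Of these, 6 were called in WT against LacZ (2 higher and 4 lower), 1 for K815R against LacZ (higher) and 9 for labelled K815Q against LacZ (2 higher and 7 lower). These are 7.69%, 1.28% and 11.5% of the genes listed, beside 5.34%, 2.47% and 7.85% of all genes. The counts moved to between 2 and 6, 0 and 1, and 2 and 12 when a library was left out. In WT the count was 2 without WT replicate 2. In K815R it was 0 without LacZ replicate 3, K815R replicate 2 or K815R replicate 3. In the labelled K815Q libraries it was 2 without their replicate 1, 12 without their replicate 2, and 3 without LacZ replicate 2 or LacZ replicate 3. Between the groups labelled with a KAT6A form, 2 were called in K815R against WT, 2 in labelled K815Q against WT and 1 for K815R against labelled K815Q. These are 2.56%, 2.56% and 1.28% of the genes listed, beside 2.20%, 1.07% and 0.363% of all genes. All 3 counts fell to 0 when some single libraries were left out. For K815R against WT these were each WT library and K815R replicate 2, with a count of 1 without K815R replicate 1. For labelled K815Q against WT they were WT replicates 1 and 2 and replicate 1 of the labelled K815Q libraries, with a count of 1 without WT replicate 3. For K815R against labelled K815Q they were K815R replicate 2 and replicates 1 and 2 of the labelled K815Q libraries. The median log2 fold change of the listed genes was -0.03, -0.01 and -0.03 in the 3 comparisons with LacZ, and that of all genes 0.00868, 0.00337 and 0.00646.

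None of the 7 tested ligand and processing genes was called in any of the 6 comparisons. Among them Ece1, the enzyme that releases endothelin-1, stood at 108 ± 3.53 CPM with LacZ, and Agt, the angiotensinogen gene, at 3.54 ± 0.746 (SD, n = 3). Of 5 other receptors tested, Mas1, the receptor for angiotensin 1-7, was higher than LacZ in WT (log2 fold change 0.94, SE 0.267, adjusted p 0.041 by edgeR) and in the labelled K815Q libraries (0.97, SE 0.268, adjusted p 0.03). Mas1 was a rare mRNA, at 0.735 ± 0.18 CPM with LacZ, 1.41 ± 0.151 with WT, 1.29 ± 0.182 with K815R and 1.45 ± 0.439 with labelled K815Q (mean ± SD, n = 3). Its calls held in 1 and 2 of 6 fits that left out a library, and DESeq2 made neither (adjusted p 0.138 and 0.0779). In WT and labelled K815Q against LacZ, 5.34% and 7.85% of all genes were called. Adra1d, the third alpha-1 receptor gene, was lower in K815R than in WT (66.1 ± 2.34 against 77.0 ± 5.62 CPM, SD, n = 3). The log2 fold change was -0.22 (adjusted p 0.0436 by edgeR), in a comparison where 2.20% of all genes were called. No fit that left out a library kept this call.

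Among 13 rows for G protein subunits, 3 fell in the labelled K815Q libraries against LacZ, a comparison in which 7.85% of all genes were called, and none was called in the other 5 comparisons. They were Gnb1 (log2 fold change -0.19, adjusted p 0.0188 by edgeR), a beta subunit, Gna13 (-0.25, adjusted p 0.0162), an alpha subunit, and Gnai1 (-0.39, adjusted p 0.0457), an inhibitory alpha subunit. In fits that left out a library these calls were kept 4, 2 and 0 times of 6. The same genes stood below LacZ by -0.12, -0.21 and -0.33 in WT and by -0.09, -0.11 and -0.27 in K815R. The adjusted p by edgeR were 0.143, 0.0548 and 0.114 in WT and 0.453, 0.493 and 0.272 in K815R. Labelled K815Q against WT gave 0.577, 0.799 and 0.862 by edgeR. The alpha subunits next to the receptors, Gnas (2 rows) and Gnaq, were called in no comparison.

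In the cyclic AMP arm of 17 genes, Prkar2b, a regulatory subunit of protein kinase A, was lower in WT than in LacZ (log2 fold change -0.25, adjusted p 0.00944 by edgeR). Prkacb, a catalytic subunit, was lower in the labelled K815Q libraries than in LacZ (-0.43, adjusted p 0.0122 by edgeR). The first call held in 5 and the second in 3 of 6 fits that left out a library. Over all genes 5.34% and 7.85% were called in these comparisons. In the phospholipase C arm of 12 genes, Prkca, protein kinase C alpha, was lower in the labelled K815Q libraries than in WT (-0.37, adjusted p 0.0323 by edgeR), kept in 2 of 6 fits. Of 11 desensitisation genes, Rgs2, which shortens Gq signals, was higher in the labelled K815Q libraries than in WT (0.31, adjusted p 0.036 by edgeR) and than in K815R, where the log2 fold change of K815R against them was -0.36 (adjusted p 0.0281). These calls of Rgs2 held in 1 and 2 of 6 fits. Over all genes 1.07% were called in labelled K815Q against WT and 0.363% in K815R against labelled K815Q.

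Of the 13 tested genes that such receptors can induce, 4, 1 and 4 were called in WT, K815R and labelled K815Q against LacZ. In these comparisons 5.34%, 2.47% and 7.85% of all genes were called, and in K815R against WT 2.20%. Of the 4 genes called against LacZ, 3 are described. Rcan1, an inhibitor and target of calcineurin, fell in WT (-0.28, adjusted p 0.00991 by edgeR) and in the labelled K815Q libraries (-0.22, adjusted p 0.039), and K815R stood above WT (0.27, adjusted p 0.0304). These calls held in 5, 1 and 2 of 6 fits. Sik1, a kinase gene induced by cyclic AMP, fell in WT (-0.29, adjusted p 0.0364 by edgeR) and in the labelled K815Q libraries (-0.32, adjusted p 0.0191), kept in 2 and 3 of 6 fits. Myc, a growth gene, rose in WT (0.28), K815R (0.30) and the labelled K815Q libraries (0.33); edgeR gave adjusted p of 0.0265, 0.0242 and 0.00731, kept in 2, 3 and 5 of 6 fits.

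**Figure D5:**
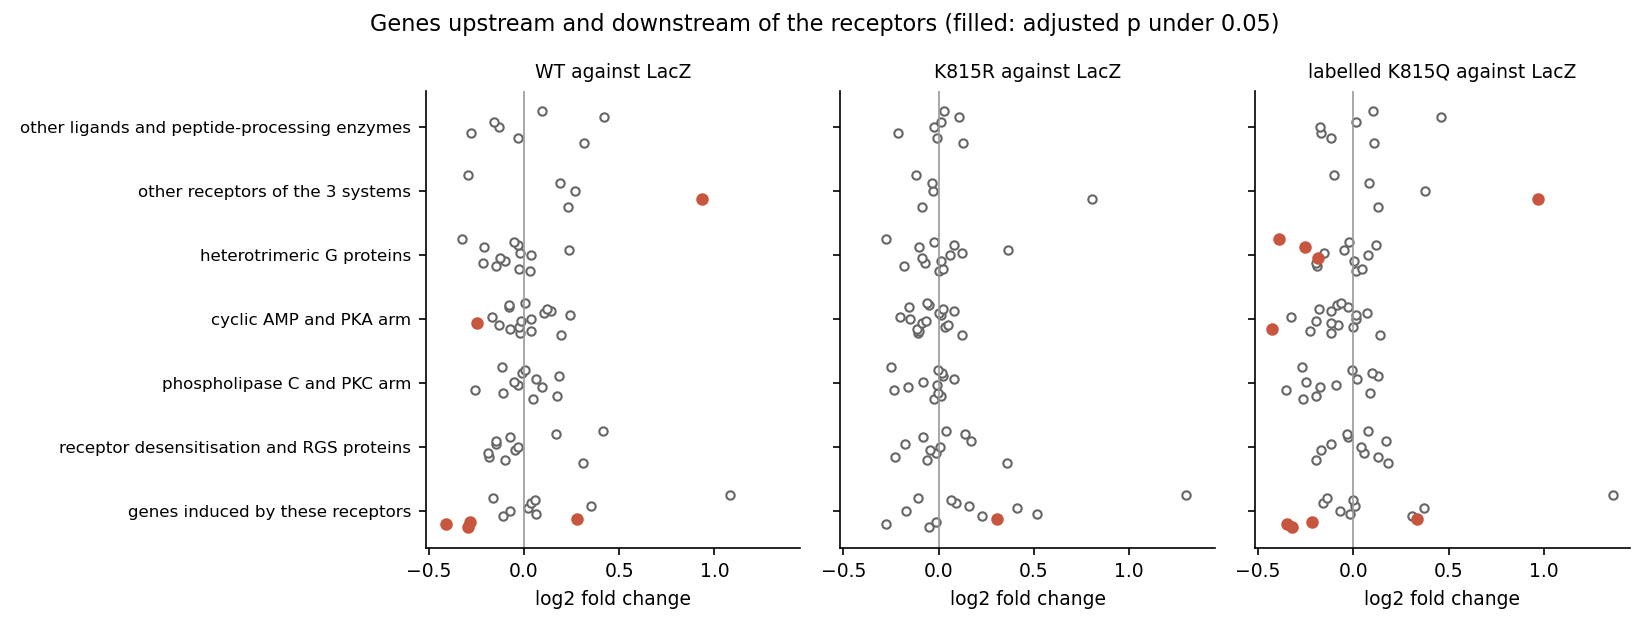
Log2 fold changes against LacZ (horizontal axis) of the 78 tested genes in 7 lists (vertical axis) for WT, K815R and the labelled K815Q libraries; each point is a gene, filled where called at an adjusted p under 0.05. Filled points number 6, 1 and 9; the open point farthest to the right in each panel is Egr1.

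Egr1, an immediate early gene named here after its values were seen, had the largest fold change of the listed genes but was not called. Its libraries stood at 20.8 to 37.5 CPM with LacZ, 39.0 to 103 with WT, 62.4 to 85.1 with K815R and 59.2 to 88.9 with labelled K815Q; edgeR gave adjusted p of 0.199, 0.193 and 0.0865 against LacZ. LacZ lay below every other library in Egr1. Of all genes, 24.6%, 18.7% and 28.4% had no overlap in WT, K815R and labelled K815Q against LacZ.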

How the data were processed

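The authors deposited 1 table of raw read counts per gene for 12 libraries. Per the submitters' processing notes, the tools were Trimmomatic 0.39, HISAT2 2.2.1, HTSeq 0.6.1 and edgeR, with build Rnor_6.0; the gene annotation and the strandedness used are not given in the sources used here. Counter rows that name no gene, which held 40.7% to 43.3% of reads, stayed out of library sizes and tests. Reads aligned to more than 1 place (25.6% to 26.9%) were not counted, which lowers the count of any gene with a near-identical copy. On GRCr8 a lncRNA gene overlaps each of Adra1b, Ednra and Ace, and reads of such pairs may not be told apart.

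Counts were scaled by TMM and filtered with filterByExpr (minimum count 10, minimum total 15). Tests used edgeR 4.0.16 in R 4.3.3, as quasi-likelihood F tests (robust fit) on 1 model holding all 4 group means, with Benjamini-Hochberg adjustment over 14063 genes and calls at an adjusted p under 0.05. Standard errors and 95% intervals come from the same test. Log2 CPM used a prior count of 2. The procedure was tested on simulated data.

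All 8 genes were described whatever their result. From each list at most 4 genes were named, those called in at least 1 comparison with a mean of at least 1 CPM and the lowest p for any difference, and for each called gene the 3 most correlated genes of at least 5 CPM. The values of 1 gene named by this rule are not reported here. The genes and lists were chosen with earlier results of these data known. Replicates differed by more than sampling noise (chi-square per degree of freedom 4.73 to 9.26). Alternatives changed the scaling (RLE, upper quartile), the filter (none, or at least 10 counts per library), the tool (DESeq2 1.42.0) and the libraries fitted (only the 6 compared, or all but 1), or added a replicate block.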

Additional observations from a re-analysis of the deposited data

Results flagged for a closer look

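Among the 8 genes, Agtr1a was flagged because its differences from LacZ in 2 groups labelled with a KAT6A form differed in a direct test. The libraries labelled K815Q stood above WT, at 0.55 on the log2 scale (adjusted p 0.0158 by edgeR, all 3 libraries above all 3 of WT). For the same reason, genes of the wider pathway were flagged. In K815R against WT these were Adra1d, with -0.22 (adjusted p 0.0436 by edgeR), and Rcan1, with 0.27 (adjusted p 0.0304). In the libraries labelled K815Q against WT they were Prkca, with -0.37 (adjusted p 0.0323 by edgeR), and Rgs2, with 0.31 (adjusted p 0.036). In K815R against labelled K815Q it was Rgs2, with -0.36 (adjusted p 0.0281 by edgeR). Each of these calls was lost in some fits with a library removed.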

How the results depend on the processing

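Over the 7 alternatives other than leaving out a library, 331 of 336 fold changes of the 8 genes kept their direction and their side of the threshold, 3 became called and 2 changed sign. Both calls were kept in all 7, at log2 fold changes of 0.22 to 0.24 for Adra1b and 0.54 to 0.55 for Agtr1a. The 3 that became called did so without a filter on low counts. There, 1 of the 8 genes was called in WT against LacZ and 2 in labelled K815Q against WT. In K815R against labelled K815Q 1 was called. Calls over all genes rose as well in these comparisons, to 1018 from 751, 423 from 151 and 307 from 51. The sign changes were of Adrb1 in WT against LacZ, to -0.000786 without a filter and -0.000164 in DESeq2.

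Leaving out a library kept 250 of 288 results, ended 5 calls, added 1 and changed the sign of 32 results, none of them called with all libraries. The number of the 8 genes called ranged from 0 to 1 in WT against LacZ, in labelled K815Q against LacZ and in labelled K815Q against WT, and from 1 to 2 for any difference, where Adra1b was lost without LacZ replicate 1, LacZ replicate 2 or replicate 1 of labelled K815Q, and Agtr1a without WT replicate 3 or replicate 2 of labelled K815Q. Log2 fold changes that crossed 0 ranged as follows. Adrb1 ranged from -0.077 to 0.051 in WT against LacZ and from -0.063 to 0.011 in K815R against labelled K815Q. Adra1a ranged from -0.048 to 0.16 in K815R against LacZ and from -0.18 to 0.029 in K815R against WT. Edn1 ranged from -0.25 to 0.077 in labelled K815Q against LacZ, -0.11 to 0.13 in K815R against LacZ, -0.12 to 0.21 in labelled K815Q against WT and -0.041 to 0.29 in K815R against labelled K815Q. Ednra ranged from -0.039 to 0.060 in labelled K815Q against LacZ. Ednrb ranged from -0.069 to 0.24 in K815R against WT, -0.13 to 0.18 in labelled K815Q against WT and -0.13 to 0.24 in K815R against labelled K815Q. Ace ranged from -0.041 to 0.077 in WT against LacZ, -0.084 to 0.014 in K815R against LacZ, -0.11 to 0.012 in K815R against WT and -0.049 to 0.069 in labelled K815Q against WT. Kat6a ranged from -0.11 to 0.032 in labelled K815Q against LacZ. The cause of these shifts was not tested.

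Of 18 same-numbered pairs of libraries, 1 had a correlation of deviations over 0.1. Pairs among the groups labelled with a KAT6A form lay between 0.000193 and 0.122, and those with LacZ between -0.127 and 0.0279. Whether libraries of the same number shared a preparation or batch cannot be told from these values. With the replicate number as a block the same 2 calls were made (Adra1b 0.23, adjusted p 0.011; Agtr1a 0.54, adjusted p 0.00726 by edgeR), and over all genes 232 against 151 were called in labelled K815Q against WT and 86 against 51 in K815R against labelled K815Q. Without a filter these 2 counts were 423 and 307, with 600 against 348 in K815R against LacZ, 553 against 309 in K815R against WT and 2036 against 1143 for any difference. K815R against labelled K815Q gave 96 in DESeq2 and 85 from the 6 libraries compared. Without a filter, calls over all genes were 1018, 600 and 1528 in WT, K815R and labelled K815Q against LacZ. With it they were 751, 348 and 1104. Of the 78 listed pathway genes, 10, 4 and 16 were called in the same comparisons without a filter (6, 1 and 9 with it). In K815R and labelled K815Q against WT, 5 and 7 were called (2 and 2), and in K815R against labelled K815Q 3 (1). Over the 7 alternatives the ranges were 4 to 10, 1 to 4, 9 to 16, 1 to 5, 2 to 7 and 1 to 3. Leaving out a library, genes called over all ranged from 378 to 639 (751 with all), 173 to 308 (348) and 360 to 1182 (1104) in the 3 comparisons with LacZ. The ranges were 124 to 177 (309) and 50 to 146 (151) against WT, 11 to 98 (51) in K815R against labelled K815Q and 650 to 1309 (1143) for any difference. Depth limits Ednrb, Edn1 and Adra1a most, at 43 to 94, 103 to 180 and 109 to 256 counts per library.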

Other observations

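The counts of Adra1a relative to Adra1b were compared between libraries after the values were seen, with no test, and Adra1a itself was called in no comparison unless the filter on low counts was dropped. For every 100 counts of Adra1b there were 8.85, 14.0 and 12.9 counts of Adra1a in the libraries labelled K815Q, against 15.2, 17.2 and 17.7 in LacZ, 16.4, 17.3 and 15.5 in WT and 17.2, 18.0 and 13.9 in K815R. The libraries labelled K815Q lay below all LacZ and WT libraries and overlapped K815R through K815R replicate 3. For every 100 counts of Ednra, LacZ had 2.95, 3.65 and 2.62 counts of Ednrb, and the 9 other libraries had between 1.70 and 2.71.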
